A study of Mus musculus with 17 samples.

Results

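A set of 10 genes of the neuronal cytoskeleton were followed over primary tumors of TH-MYCN mice: the stathmins Stmn1, Stmn2, Stmn3 and Stmn4, doublecortin (Dcx), the microtubule-associated proteins Map2, Mapt (tau) and Map1b, the tubulin Tubb3, and Gap43. Members were the genes of this fixed set of 10 symbols, each read from the array's probe sets that the platform annotation ties to that symbol alone. They took up 24 of 34945 single-gene probe sets and 10 of 18193 measured genes. Each gene was represented by its probe set of highest mean.

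The TH-MYCN mouse is a model of neuroblastoma, a childhood cancer of the developing sympathetic nervous system. All 17 tumors belonged to 1 group: the mice were hemizygous for a MYCN transgene under the rat tyrosine hydroxylase promoter, which is active in cells of the neural crest lineage and were kept on 1 inbred strain background. The samples were primary abdominal tumors, hybridized to 1 Affymetrix mouse array each, and there was no second genotype, normal tissue or treatment to set them against. Sex, age and weight of single tumors are not in the labels, so relations were measured over tumors and each tumor is called by its number, mad548 to mad565.

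Microtubules are polymers of alpha and beta tubulin that grow and shrink at their ends, and a young neuron extends its axon and dendrites by steering this turnover. Stathmins bind free tubulin dimers and favour disassembly, whereas doublecortin, tau, Map1b and Map2 bind along the polymer and stabilise or space it. Tubb3 is the beta tubulin isotype used as a marker of neurons, and Gap43 is a membrane phosphoprotein of the growth cone. Stmn2, Dcx, Tubb3 and Gap43 are known markers of neuroblasts and of regenerating or growing neurons.

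RefSeq promoter windows of build GRCm38.p6, each reaching from 250 bases before to 50 bases after a transcription start, matched 5 of the 10 genes (Stmn3, Dcx, Map2, Map1b and Tubb3) in 6 windows. Stmn1, Stmn2, Stmn4, Mapt and Gap43 had no entry. Of these, 3 windows are shown, those of Dcx and Stmn3, the genes paired with Stmn2 in the relations below, and that of Tubb3 as a neuron marker with a promoter of a different composition. Capitals mark matches on either strand to the TATA box TATAAA, the GC box GGGCGG, the CCAAT box CCAAT and the E-boxes CACGTG and CAGATG, none of which contains another. The Dcx window lies at chrX:143933170-143933469 on the minus strand, the Stmn3 window at chr2:181314451-181314750 on the minus strand, and the Tubb3 window at chr8:123411303-123411602 on the plus strand.
Dcx: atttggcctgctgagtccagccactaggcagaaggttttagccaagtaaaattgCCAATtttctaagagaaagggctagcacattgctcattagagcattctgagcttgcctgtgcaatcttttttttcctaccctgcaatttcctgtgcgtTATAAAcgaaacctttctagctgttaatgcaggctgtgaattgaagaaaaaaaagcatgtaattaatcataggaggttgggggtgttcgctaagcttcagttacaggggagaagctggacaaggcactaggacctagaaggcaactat
Stmn3: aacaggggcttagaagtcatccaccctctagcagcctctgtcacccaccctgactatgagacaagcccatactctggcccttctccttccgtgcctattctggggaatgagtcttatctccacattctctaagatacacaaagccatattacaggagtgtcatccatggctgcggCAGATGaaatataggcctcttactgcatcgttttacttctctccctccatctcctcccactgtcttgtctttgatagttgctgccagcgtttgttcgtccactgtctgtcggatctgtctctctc
Tubb3: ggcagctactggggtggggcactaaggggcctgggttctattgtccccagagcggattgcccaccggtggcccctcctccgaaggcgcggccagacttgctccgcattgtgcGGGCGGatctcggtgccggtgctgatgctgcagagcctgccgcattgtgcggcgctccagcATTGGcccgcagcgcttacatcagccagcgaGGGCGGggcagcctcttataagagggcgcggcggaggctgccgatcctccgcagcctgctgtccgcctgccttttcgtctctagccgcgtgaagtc

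The Dcx window held 1 TATA box and 1 CCAAT box, 3 CpG dinucleotides and 43.0% G and C bases, and 16.5% of all 32851 windows had a lower GC content. The Stmn3 window held none of the motifs except 1 CAGATG, with 6 CpG and 49.7% GC. The Tubb3 window was GC-rich at 67.3%, with 26 CpG, 2 GC boxes and 1 CCAAT box. The windows of Map2 and Map1b were GC-rich as well, at 77.7% and 65.7%, against a median of 52.7% over all windows. That of Map2 held 5 GC boxes, and that of Map1b 2 GC boxes, 1 TATA box and 1 CAGATG. Of all windows 13.6% held TATAAA, 35.7% GGGCGG, 37.4% CCAAT, 7.2% CACGTG and 17.2% CAGATG, so each match is common and is given as a description of the letters only.

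Array values were the authors' RMA summaries on the log2 scale, with array medians between 6.28 and 6.51. The levels of different probe sets depend on their own hybridisation and were not set against each other. The labelled tissue was checked against marker lists: the mean of 15 neuron and synapse genes lay between 9.85 and 10.53 in the tumors and that of 11 noradrenergic identity genes between 10.97 and 11.49. The mean of 12 macrophage genes was 8.98 at the lowest, in mad563, with a median of 9.57 and its highest value in mad562, that of 9 fibroblast genes lay between 8.52 and 10.10, and that of 8 Schwann cell genes was at most 6.99. These means rest on different probe sets and give no order of cell numbers. Some arrays stood apart through other tissue: the mean of 10 skeletal muscle genes was 10.49, 11.02 and 13.04 in mad549, mad550 and mad553 and 5.65 to 6.38 elsewhere, and 7 liver genes averaged 9.64 in mad562 and 7.14 in mad559. The mean of 5 adipose genes varied widely, from 6.23 in mad552 to 10.33 in mad548 and 10.73 in mad556, the tumor of lowest Mapt, and its part in the values was not tested. Each called pair of genes is therefore also given without mad549, mad550 and mad553. In whole tumors, fewer cells of a type and less RNA per cell cannot be told apart.

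Within each array the probe sets were ranked into quartiles of signal. In 9 of the 10 genes, all but Mapt, the representing probe set lay in the highest quartile of its array in 17 of 17 tumors, a position that 28.2% of all genes held. Mapt lay there in 3 tumors, with a mean quartile of 3.18. Their spread over tumors ranged from an SD of 0.08 for Stmn1 to 0.51 for Mapt, with a median of 0.25 beside 0.19 for all genes.

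**Figure D1:**
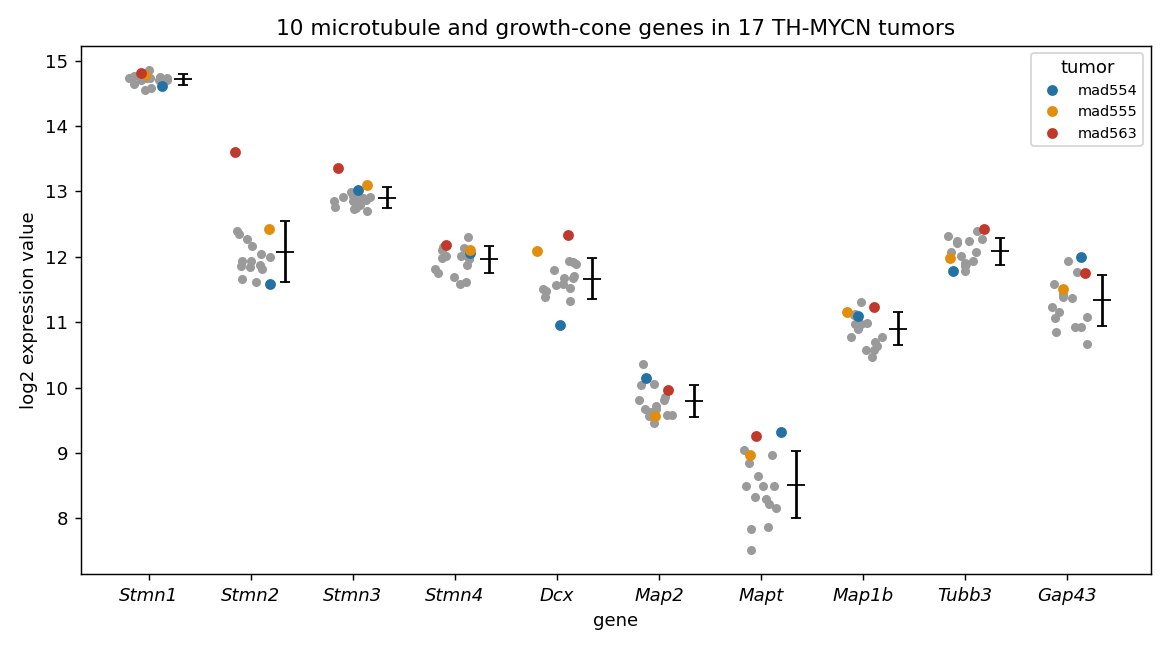
Log2 expression value of each of the 10 genes in the 17 tumors (1 point per tumor, mad554, mad555 and mad563 coloured), with the mean and SD as a bar beside the points. Stmn1 points lie within 0.3 of each other, whereas mad563 stands above the other tumors for Stmn2 and the Mapt points spread over 1.82.

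Over the representing probe sets, the stathmins ranged from an SD of 0.08 to one of 0.47. Stmn1, the widespread stathmin that also acts in dividing cells, had its lowest log2 value at 14.56 in mad553, its median at 14.73 and its highest at 14.86 in mad548 (14.72 ± 0.08, SD, n = 17). Of the 500 genes closest to it in mean, 8.0% had a smaller SD. This probe set lay near the highest values on the arrays, and the gene's other probe set had an SD of 0.28, with its lowest value in mad554 and its highest, 11.07, in mad565. Stmn2 (SCG10), the membrane-anchored stathmin of growth cones, ran from 11.58 in mad554 through a median of 11.93 to 13.60 in mad563 (12.08 ± 0.47), a 4.07-fold range. The value of mad563 stood 1.19 above that of the next tumor, mad555 at 12.42, and the other 16 tumors lay between 11.58 and 12.42, with an SD of 0.27. Over all tumors the median SD of genes of similar mean was 0.16. Of genes of similar mean, 98.6% had a smaller SD than Stmn2.

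Stmn3 (SCLIP), a neuronal stathmin found on Golgi membranes, ran from 12.70 in mad559 through 12.90 to 13.36 in mad563 (12.90 ± 0.16). As for Stmn2, mad555 was second, at 13.10, but the next tumor was mad554 at 13.03, which was the lowest for Stmn2. Stmn4 (RB3), the remaining neuronal stathmin, ran from 11.59 in mad565 through 12.01 to 12.31 in mad562 (11.96 ± 0.21). For Stmn4 mad563 was second at 12.18 and no tumor stood apart.

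Among the proteins that bind along microtubules, Dcx, the doublecortin of migrating neuroblasts, had the lowest value in mad554 at 10.96, a median of 11.67 and its highest value in mad563 at 12.33 (11.67 ± 0.32). Both ends were separated from the rest, by 0.36 below mad565 and by 0.23 above mad555, and 93.6% of genes of similar mean varied less. Mapt, the axonal protein tau, ran from 7.51 in mad556 through 8.49 to 9.32 in mad554 (8.51 ± 0.51), a 3.52-fold range. No single tumor led at the top of Mapt, where mad563 was next at 9.26. At the bottom mad556 lay 0.33 below the next tumor, mad559 at 7.84. Map1b, the early axonal member of the family, ran from 10.46 in mad551 through 10.97 to 11.31 in mad553 (10.90 ± 0.26), with 84.8% of genes of similar mean varying less. Map2, which marks dendrites, ran from 9.45 in mad562 through 9.72 to 10.36 in mad560 (9.79 ± 0.25), and mad560 and mad554 were its highest tumors.

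Tubb3, the neuronal beta tubulin, ran from 11.78 in mad551 through 12.07 to 12.42 in mad563 (12.08 ± 0.21). Its highest tumors, mad563 and mad558 at 12.39, were 0.03 apart. Gap43, the growth cone protein, ran from 10.67 in mad565 through 11.37 to 11.99 in mad554 (11.33 ± 0.39), and 96.2% of genes of similar mean varied less. The next tumor, mad560 at 11.93, lay close to mad554, so the high values of Gap43 belonged to several tumors.

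**Figure D2:**
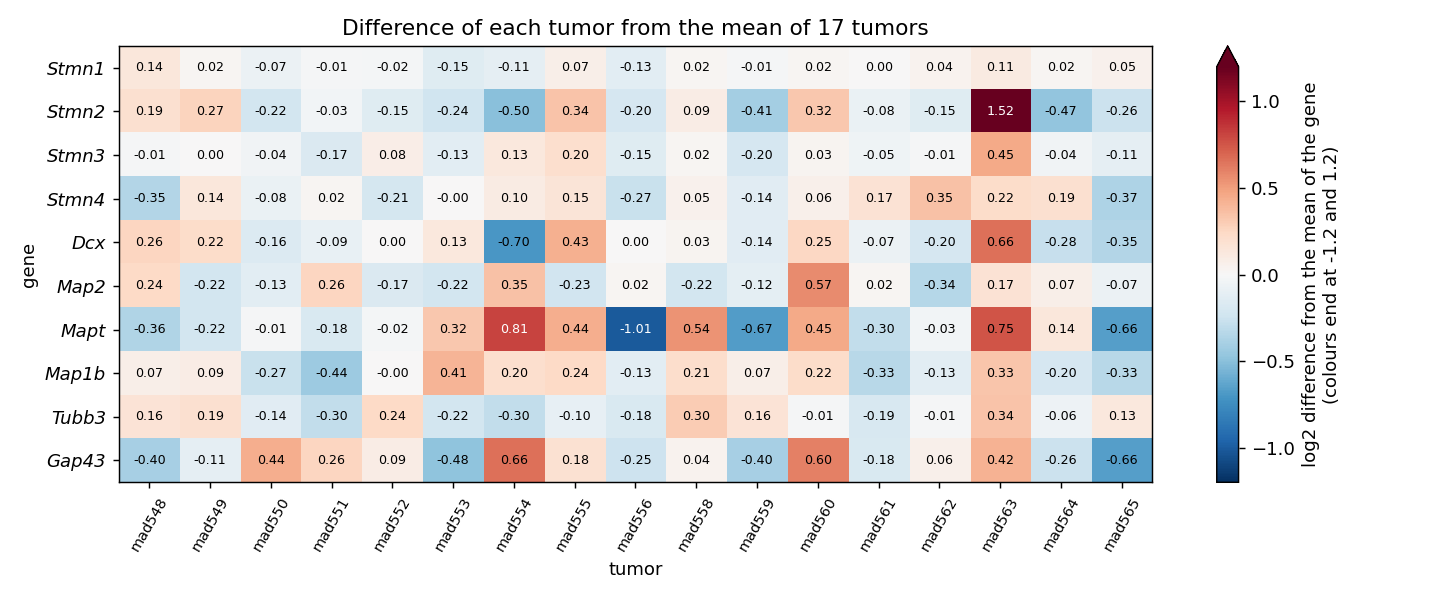
Log2 difference of each tumor from the mean of 17 tumors (columns) for each gene (rows). Differences in mad563 are positive in all rows and reach 1.52 for Stmn2, whereas mad554 is 0.81 above the mean for Mapt and stands at -0.70 for Dcx.

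A pair of tumors recurred at the ends of these ranges. Tumor mad563 was the highest for 4 of the 10 genes (Stmn2, Stmn3, Dcx and Tubb3), among the top 3 for 8 and above the mean for 10, and 14.4% of all genes were highest in that tumor. The mean over the 10 genes was 12.09 in mad563, 11.85 in mad560 and 11.33 in mad565, the lowest. Tumor mad563 also had the highest neuron and synapse mean (10.53) and the lowest macrophage and fibroblast means (8.98 over 12 genes and 8.52 over 9), whose part in these values was not tested. Tumor mad554 held both ends by the representing probe sets: Mapt and Gap43 were highest and Stmn2 and Dcx lowest in it. Of all genes 14.7% were highest and 2.39% lowest there. For Mapt mad554 led mad563 by 0.07 and for Gap43 it led mad560 by 0.06. These leads were smaller than the differences in array median, which was 6.51 in mad554, 6.36 in mad563 and 6.33 in mad560.

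The 24 probe sets gave 1 to 4 readings per gene. For Mapt the readings moved together closely: the 3 brighter probe sets correlated with r of 0.94, 0.96 and 0.97 over the 17 tumors (permutation p = 1e-05 each, the smallest that 100000 permutations can give, two-sided), and all 3 had mad556 as the lowest tumor. A dimmer Mapt probe set, with a mean of 5.95, gave r of 0.73 to 0.81 with them. Of the 3 brighter ones, the representing one was highest in mad554, at 9.32. The other 2 were highest in mad563 (8.96 and 8.46), with 8.83 and 8.27 in mad554. For Dcx the 2 brighter probe sets gave r = 0.84 and rho = 0.93 (permutation p = 6e-05 for r), both low in mad554 (10.96 and 8.58), but the dimmer of them was highest in mad555 (10.18) and stood at 9.73 in mad563. For Stmn2 both probe sets were highest in mad563 (13.60 and 11.96) and lowest in mad554, with r = 0.83 (permutation p = 0.00033) and 0.54 without the 2 tumors most distant from the median. For Stmn3 both were also highest in mad563, with r = 0.60 (permutation p = 0.0114) and 0.37 without the 2 most distant tumors.

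The readings of other genes were less alike. Both bright Map2 probe sets gave r = 0.52 (permutation p = 0.0326) and both bright Map1b probe sets r = 0.38 (permutation p = 0.129). The Stmn1 probe sets did not move together measurably (r = 0.14, permutation p = 0.586): mad563 was the second highest tumor in one, at 14.82, and among the lowest in the other, at 10.09. The remaining Dcx, Map2 and Map1b probe sets averaged 5.13 to 6.51, near or below the array medians, so that their differences between tumors are those of dim signals. Over all 24 probe sets, 10 were highest in mad563, and 14.4% of all genes were highest there. Both Stmn2 and both Stmn3 probe sets and a dim Map1b one are among the 10, which thus repeat readings of the same genes. The share over all probe sets was not counted.

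**Figure D3:**
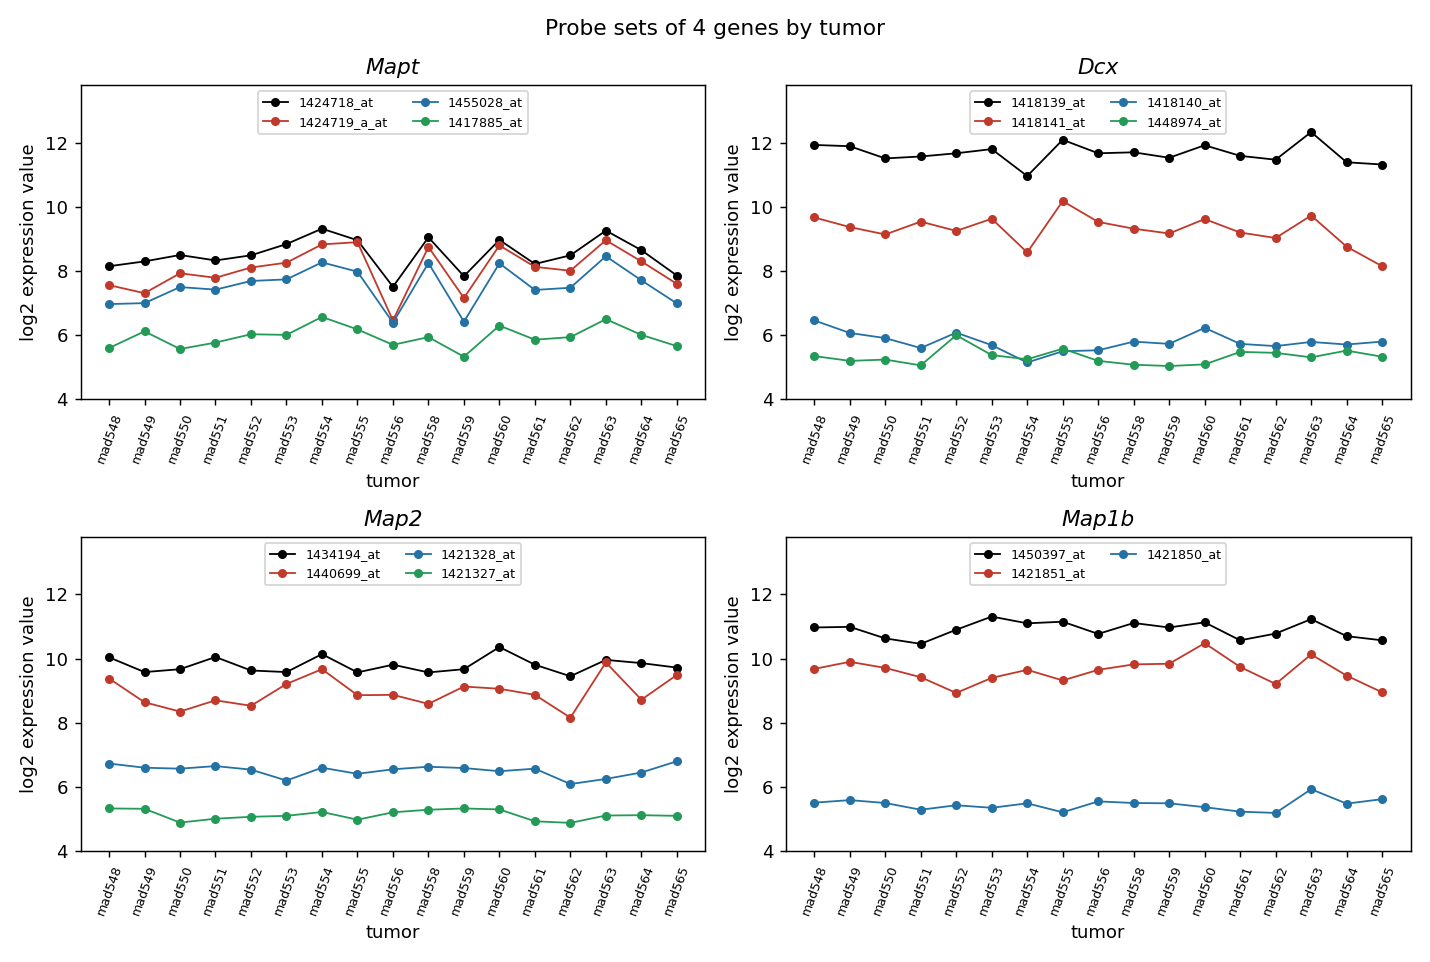
Log2 expression value of each probe set of Mapt, Dcx, Map2 and Map1b by tumor (1 line per probe set, the black line being the one that represents the gene). The 3 upper Mapt lines run in parallel with a dip at mad556 and the 2 upper Dcx lines dip at mad554, and the dim Dcx, Map2 and Map1b lines lie under 7.

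Whether these genes rose and fell together over tumors was measured for all 45 pairs. Of these, 39 had a positive r (86.7%), with a median of 0.33 and a range of -0.23 to 0.84, whereas the 10 genes against all other genes had 61.3% positive and a median of 0.09. In 12 pairs the permutation p of r was under 0.05. The shares of all genes with an unadjusted limma p under 0.05 were 16.2% with Stmn2, 20.6% with Stmn3 and 9.99% with Dcx, and that with Mapt lay between those of Dcx and Stmn2. For a call, each gene was fitted on the other with limma, adjusted by Benjamini-Hochberg over 18192 genes, and both adjusted p-values had to be under 0.05. By this rule 2 pairs were called, Stmn2 with Dcx and Stmn2 with Stmn3, so 2 of the other 9 genes were called with Stmn2, beside 2.11% of all genes. The shares of all genes count only the fit of each gene on the named member, a looser rule than that for pairs. The share of all genes called was 3.37% with Stmn3, 0.264% with Dcx and 0.176% with Mapt, and 0% with Stmn1, Stmn4, Map2, Map1b, Tubb3 and Gap43, for which the unadjusted shares were 7.88% to 11.6%.

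Stmn2 and Dcx had r = 0.84 and rho = 0.85 (permutation p = 1e-05 and 2e-05, limma adjusted p = 0.0171). The tumors lined up along their whole range: mad554 was lowest and mad563 highest in both genes, and mad555 was second highest in both. The correlation was 0.80 without the 2 tumors most distant from the median Stmn2 value and 0.84 without mad563. The call was lost without mad555 (adjusted p = 0.0513) or without mad563 (0.083), while r stayed between 0.83 and 0.87 when any single tumor was left out. Without the 3 muscle-bearing tumors r was 0.86 (adjusted p = 0.0243). When each gene was the mean of all its probe sets, r was 0.67 (adjusted p = 0.35).

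Stmn2 and Stmn3 had r = 0.76 but rho = 0.49 (permutation p = 0.00455 and 0.0494, limma adjusted p = 0.0483). The relation rested on mad563: without that tumor r was 0.38 (adjusted p = 0.848), and without the 2 tumors most distant from the median Stmn2 value it was 0.19. The adjusted p stayed under 0.05 when mad552 or mad554 was left out, and passed it when any other single tumor was. Without the 3 muscle-bearing tumors r was 0.76 and the adjusted p 0.104. Stmn3 was represented by a probe set of the type _x_at, whose probes may also bind other transcripts. With probe sets ending in _s_at, _x_at or _a_at left out, r was 0.46 (adjusted p = 0.682).

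**Figure D4:**
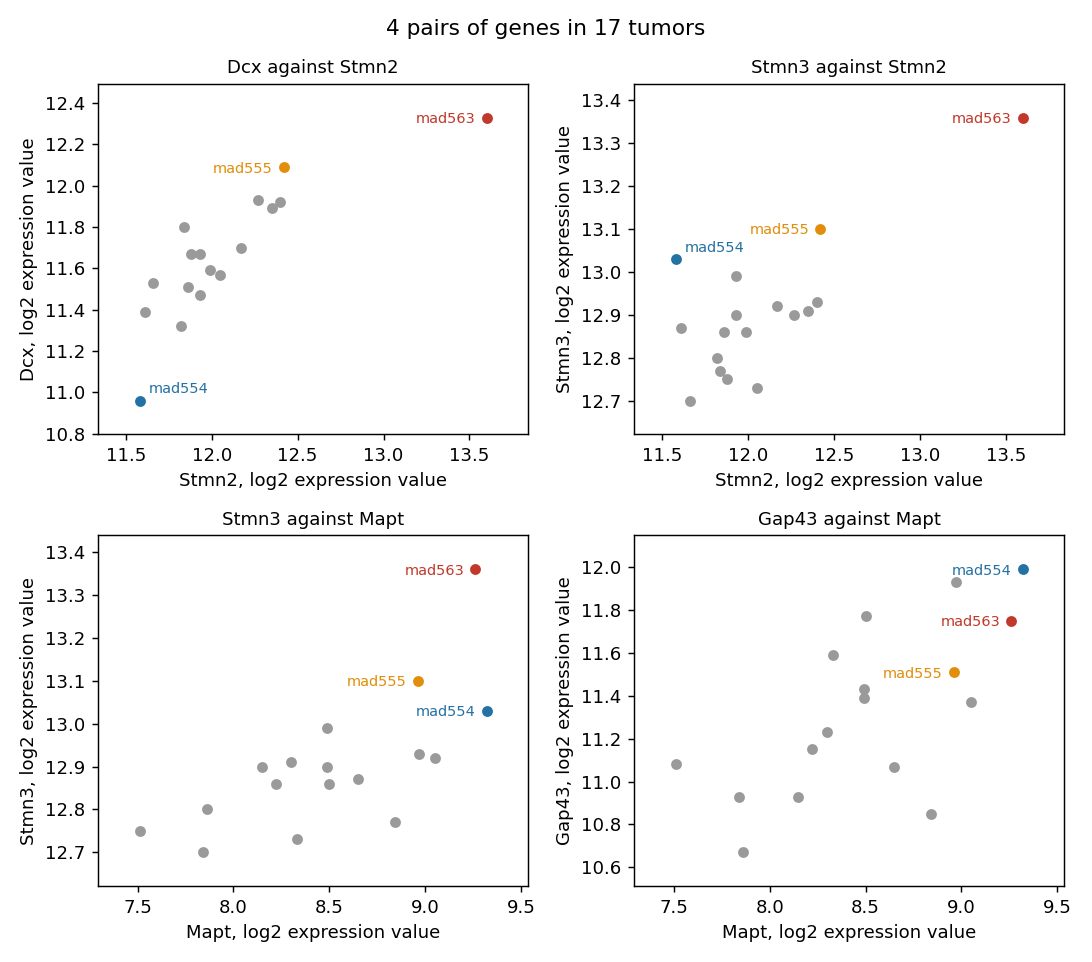
Log2 expression values of 4 pairs of genes, 1 point per tumor with mad554, mad555 and mad563 coloured. Dcx rises with Stmn2 over all tumors (r = 0.84), whereas in the plot of Stmn3 against Stmn2 (r = 0.76) mad563 lies far from the remaining tumors.

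A further set of pairs centred on Mapt did not pass the adjusted threshold. Mapt gave r = 0.70 with Stmn3 (rho = 0.73, permutation p = 0.0009, limma adjusted p = 0.129), 0.67 with Gap43 (rho = 0.65, permutation p = 0.0035, adjusted p = 0.179), 0.61 with Stmn4 (rho = 0.52, permutation p = 0.0102, adjusted p = 0.465) and 0.61 with Map1b (rho = 0.62, permutation p = 0.0105, adjusted p = 0.525). These values did not depend on mad563, without which they were 0.69, 0.63, 0.57 and 0.55. Mapt and Dcx, which both bind along the polymer, had r = 0.18 (permutation p = 0.488), and the value was 0.55 without mad554, where Mapt was highest and Dcx lowest. Stmn1 and Tubb3 had r = 0.62 (rho = 0.58, permutation p = 0.00744, adjusted p = 0.621). The lowest r was that of Map2 and Tubb3, -0.23 (permutation p = 0.381).

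**Figure D5:**
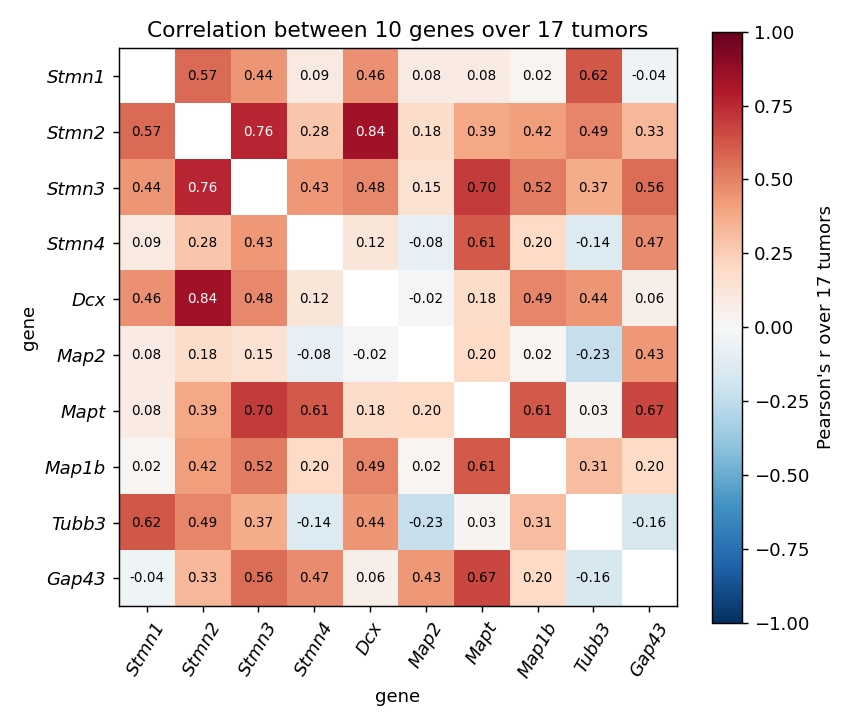
Pearson's r over 17 tumors for each pair of the 10 genes. The highest values are 0.84 for Stmn2 and Dcx, 0.76 for Stmn2 and Stmn3 and 0.70 for Stmn3 and Mapt, and Map2 and Tubb3 have the lowest at -0.23.

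The genes were then set against the mean of 9 lists of cell types and states, 90 relations in all. With the neuron and synapse list, which holds synaptic, neurofilament and RNA-binding genes of neurons, all 10 genes had a positive r (0.15 to 0.81). The share of all genes with a positive r was not counted. The permutation p was under 0.05 for 6 of them, beside 18.1% of all genes at an unadjusted limma p under 0.05. By limma 2 were called, beside 1.86% of all genes. These were Stmn3 (r = 0.81, rho = 0.73, permutation p = 0.00011, limma adjusted p = 0.0327) and Stmn2 (r = 0.70, rho = 0.51, permutation p = 0.00242, adjusted p = 0.046). Without mad563 the values were 0.68 for Stmn3 (adjusted p = 0.322) and 0.46 for Stmn2 (adjusted p = 0.466), and neither was called. Without probe sets ending in _s_at, _x_at or _a_at, Stmn3 had r = 0.43 (adjusted p = 0.397). The Stmn3 call was also lost without mad555, mad556 or mad559, and the Stmn2 call when any of 12 tumors was left out. Tubb3, itself a neuron marker, had r = 0.15 with the list (permutation p = 0.576), and -0.14 without mad563.

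With the noradrenergic identity list, the transcription factors and enzymes of sympathetic cells, 3 of the 10 genes had a permutation p under 0.05, beside 13.7% of all genes at an unadjusted limma p under 0.05, and 0 were called by limma, beside 0.165% of all genes. Map2 had r = 0.73 (rho = 0.63, permutation p = 0.00068, adjusted p = 0.107) and Mapt r = 0.66 (rho = 0.55, permutation p = 0.00443, adjusted p = 0.13), and without the 2 tumors most distant from the list's median they had 0.67 and 0.58. Gap43 followed with r = 0.50 (permutation p = 0.0422, adjusted p = 0.312), whereas Tubb3 had r = -0.33 (permutation p = 0.199).

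No gene was called by limma with proliferation, MYC targets, Schwann cell, macrophage, endothelial, fibroblast or hypoxia genes. The permutation p was under 0.05 for 1, 0, 2, 0, 1, 0 and 2 of the 10 genes in turn, beside 12.2%, 12.7%, 14.2%, 15.3%, 13.3%, 4.93% and 10.5% of all genes at an unadjusted limma p under 0.05. The shares of all genes called after adjustment were 0.94%, 0.0055%, 0%, 5.24%, 0.803%, 0.022% and 0.44%. Tubb3 had a permutation p under 0.05 with proliferation (r = 0.57) and hypoxia (-0.50), and Map2 with endothelial (-0.58) and hypoxia (0.64) genes. Stmn1 and Stmn3 had it with Schwann cell genes (0.59 and 0.50). With the macrophage list r lay between -0.41 and -0.03, but without mad563, the tumor of the lowest macrophage mean, it was positive for Stmn1, Stmn3, Stmn4 and Gap43 (0.11, 0.07, 0.05 and 0.01).

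A measure of RNA quality moved with several of the genes. The difference between the 3′ and 5′ control probe sets of Gapdh and Actb, which grows as transcripts are shortened, lay between 1.89 and 2.37 on the log2 scale. It had a negative r with all 10 genes, of which 4 had a permutation p under 0.05: Stmn2 (r = -0.63, rho = -0.74, permutation p = 0.00889), Stmn1 (-0.57, permutation p = 0.0163), Stmn3 (-0.51, permutation p = 0.0382) and Tubb3 (-0.50, permutation p = 0.0426). By limma 0% of all genes were called with this measure and 6.8% had an unadjusted p under 0.05. The share of all genes with a negative r was not counted. With the measure as a covariate Stmn2 and Dcx had a residual r of 0.79 (adjusted p = 0.057) and Stmn2 and Stmn3 0.65 (adjusted p = 0.206), so neither pair was called.

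Other microtubule genes of neurons were taken from 9 lists, in which 78 of 83 genes were measured, and 780 relations with the 10 genes were counted. Called relations were found with Stmn2 for 5 of the 78 genes (6.41%, beside 2.11% of all genes) and with Stmn3 for 9 (11.54%, beside 3.37%), all of them positive. With Dcx and Mapt, which called 0.264% and 0.176% of all genes, none of the 78 was called, nor with the other 6 genes. The median r of the 78 genes was 0.35 with Stmn2 and 0.33 with Stmn3, beside 0.10 and 0.18 for all genes. The 14 relations came from 10 genes, 4 of which were called with both stathmins.

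Those 4 were Crmp1 and Dpysl4, collapsin response mediators that act on tubulin in growth cones, Dclk1, a doublecortin-like kinase, and Map9, a protein of spindle and ciliary microtubules. Dclk1 had r = 0.84 with Stmn2 and 0.79 with Stmn3, and its log2 value was 11.03 at the lowest, 11.31 at the median and 12.25 in mad563. Crmp1 had r = 0.83 and 0.81, with values of 12.62, 12.79 and 13.28. The highest r of all was that of Mapk8, the kinase JNK1 that phosphorylates stathmins and Map1b, with Stmn3 (r = 0.85, rho = 0.80, limma adjusted p = 0.0138), and its values were 9.52, 9.80 and 10.21. The other genes called were Dpysl5, Map7d1, Mark1 and Tubg2 with Stmn3 and Vash2 with Stmn2. Tubg2 was a dim signal, from 4.81 to 6.34, below the mean array median of 6.35. All 10 called genes were highest in mad563, as were Stmn2 and Stmn3 themselves, beside 14.4% of all genes. A gene called as rising with either stathmin is likely to peak there, so this count describes the selection. Without mad563 0 of the 14 relations were called by limma, with r between 0.30 and 0.77. Of the 14, 1 stayed called with the RNA quality measure as a covariate, 7 with the first principal component as a covariate, and 0 with ranks over tumors. On ranks all genes have the same spread, and even Stmn2 and Dcx, at r = 0.85, had a limma adjusted p of 0.464. The 0 with ranks therefore cannot show that a relation was lost.

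The 10 genes were also compared with all genes at or above the array median, to name those whose pattern over tumors was most like theirs. The highest r with Mapt were those of Aplp1 (0.91), an amyloid precursor-like protein, Caly (0.89), a vesicle protein of neurons, and Celf5 (0.89), an RNA-binding splicing factor, with limma adjusted p of 0.00314, 0.00314 and 0.00315. The lowest r with Mapt were those of Fgd6 (-0.88, adjusted p = 0.00314), Hes6 (-0.83, adjusted p = 0.0442), a transcription factor of neurogenesis, and Tox3 (-0.81, adjusted p = 0.036). The calls of Aplp1, Caly, Celf5 and Fgd6 held when any single tumor was left out, with an adjusted p of at most 0.0222, whereas that of Hes6 was lost when any of 12 tumors was left out and that of Tox3 when any of 8 was. Aplp1 was lowest in mad556 (9.45), as was Mapt, with a median of 10.13 and 10.88 in mad563. In all, 32 genes were called with Mapt, with 9 without mad559 and 189 without mad558.

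For Dcx the highest r were those of Pirt (0.92, adjusted p = 0.000394), a membrane protein of peripheral neurons, Tacc2 (0.86), a centrosomal coiled-coil protein, and Parp16 (0.86). The lowest were those of Slc7a8 (-0.89, adjusted p = 0.00405), a transporter of neutral amino acids, Rasl11b (-0.83) and Zfpm1 (-0.83), a partner of GATA factors. Pirt ran from 8.46 in mad554 through 9.49 to 10.57 in mad563, and Slc7a8 ran the other way, from 5.80 in mad563 through 6.39 to 7.57 in mad554. Both were called without any single tumor, with an adjusted p of at most 0.0147, and the other 4 lost the call without mad555 or mad563. The count of genes called with Dcx was 48 over all tumors (0.264%) and 2 without mad555 or without mad563, and without mad554 3.11% of genes were called.

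With Stmn3 the highest r were those of Col9a3 (0.95), Rusc1 (0.94) and Rtl8c (0.94), with r of 0.89, 0.87 and 0.86 without mad563. Only the call of Col9a3, a chain of a cartilage collagen, held without that tumor (adjusted p = 0.0184, 0.0697 for Rusc1 and 0.104 for Rtl8c). The lowest were those of Eed (-0.84), Zglp1 (-0.81) and Coa6 (-0.81), none of which was called without mad563. With Stmn2 the highest were Carhsp1 (0.91), Pkia (0.90) and Igsf3 (0.89) and the lowest Dennd4c (-0.87), Atp13a3 (-0.87) and Ifi35 (-0.85). None of these 6 was called without mad563, when their r were 0.71, 0.68, 0.71, -0.74, -0.59 and -0.69. Without that tumor 0 genes were called with Stmn2 in place of 383, and 2 with Stmn3 in place of 613.

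For the other genes no relation with any gene passed the limma threshold over 17 tumors. The highest r were those of Atg101 with Stmn1 (0.84), Prmt2 with Stmn4 (0.86), Dgkd with Map2 (0.85), Efna5 with Map1b (0.87), Dmap1 with Tubb3 (0.89) and Kansl1 with Gap43 (0.86), with adjusted p of 0.6, 0.262, 0.242, 0.0825, 0.0732 and 0.104. The lowest were those of Pde4d with Stmn1 (-0.83), Plpp6 with Stmn4 (-0.78), Rnf114 with Map2 (-0.78), Fgd6 with Map1b (-0.75), Zfp715 with Tubb3 (-0.74) and Washc3 with Gap43 (-0.84). Fgd6 was thus among the lowest for both Mapt and Map1b, and ran from 6.23 in mad563 through 7.26 to 8.17 in mad556.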

How the data were processed

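Total RNA of 17 tumors was labelled by the two-cycle procedure and hybridized to 1 array per tumor, all in 1 group by the labels. The deposited values are log2 expression values per probe set, which the authors made with RMA (background correction, quantile normalization and summary over probes). The labels name RMA and Partek 6.4, while the methods section of the study names MAS5 for the arrays. The values (3.28 to 15.59) were used as deposited. Quantile normalization gives all arrays nearly the same distribution, so only relative differences between tumors are seen. The array signal gives no read depth, and the number of arrays limits the precision. The tumors came from separate samples by the labels, and whether they share a litter is not given in the sources used here.

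Of 45101 probe sets, 64 were controls, 34945 had 1 gene symbol in the platform annotation, 932 had several and 9160 were unnamed here. The 34945 gave 18193 genes, each read from its probe set of highest mean. Each gene was regressed on each of the 10 genes, on the mean of each of 9 lists and on the control probe difference with limma 3.58.1 (lmFit and eBayes, R 4.3.3), with Benjamini-Hochberg adjustment over all genes and a threshold of 0.05. Pearson's r and Spearman's rho had 100000 two-sided permutations (seed 1), with r also given after removal of the 2 tumors whose value on the x axis was most distant from its median. The spread of a gene was set beside that of the 500 genes closest in mean. Calculations used Python 3.11.15, NumPy 2.4.6, SciPy 1.17.1 and pandas 2.3.3, and plots Matplotlib 3.10.9. On simulated data with 18193 genes the fit called 92 of 100 genes with a true r of 0.9. It called 26 of 100 with a true r of 0.7 and 5 of 17993 with a true r of 0. Whether these rates hold for the tumor arrays was not tested. Over the 17 tumors Dmap1 had r = 0.89 with Tubb3 and was not called (limma adjusted p = 0.0732). Mark1 had r = 0.69 with Stmn3 and was called (limma adjusted p = 0.0464).

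The members and lists were chosen with earlier results of these data known. Genes named are the 10 members with all probe sets, the genes of the microtubule lists that were called, and for each member the 3 highest and 3 lowest r among the 11223 genes whose mean was at or above the array median. No listed gene was called with 3 or more members, so those called with fewer were named after their values were seen. Alternatives covered the choice and type of probe sets, centring of arrays, a filter on dim genes, ranks, the first principal component as a covariate (21.5% of the variance), and tumors left out. The control probe difference as a covariate, and leaving out mad562 together with the muscle-bearing tumors, were added after seeing the data.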

Additional observations from a re-analysis of the deposited data

How the results depend on the processing

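The main settings gave 2 pairs of members, 2 relations with lists and 14 relations with other microtubule genes. These counts were 0, 0 and 1 with the control probe difference as a covariate, 0, 0 and 7 with the first principal component as a covariate, 0, 0 and 6 with the mean of all probe sets of a gene, and 0, 0 and 0 with ranks over tumors. They were 1, 1 and 7 without probe sets ending in _s_at, _x_at or _a_at, 1, 0 and 7 without mad549, mad550 and mad553, 1, 0 and 8 when mad562 was left out as well, 2, 1 and 12 with centred arrays, and 2, 2 and 16 with dim genes filtered. With centred arrays the 1 list relation was that of Mapt with MYC targets, whose r in the main settings was negative (-0.47, rho = -0.56). Leaving out each tumor in turn gave 0 to 3 pairs, 0 to 3 list relations and 0 to 21 microtubule relations. The value 0 for pairs came without mad555 or mad563, for list relations without mad555, mad556, mad559 or mad563, and for microtubule relations without mad563. Leaving out tumors also leaves fewer to test. On ranks all genes have the same spread, and Stmn2 with Dcx had r = 0.85 but a limma adjusted p of 0.464. The counts of 0 with ranks therefore cannot show that relations were lost. For the other settings the cause was not tested. The pair of Stmn2 and Dcx kept an adjusted p under 0.05 in 20 of 26 alternatives and that of Stmn2 and Stmn3 in 4 of 26, and neither pair changed its sign. Weaker relations that were not called did change sign without mad563, such as Dcx with Mapt (0.18 to -0.02) and Tubb3 with the neuron and synapse list (0.15 to -0.14). No paired analysis was possible because all tumors are in 1 group with 1 array each.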

Other observations

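Among the 9 lists of other microtubule genes, the collapsin response mediator family varied most over tumors. The mean of its 5 genes ran from 10.12 in mad559 to 11.36 in mad563, with an SD of 0.29, whereas the SD of the other 8 list means lay between 0.08 and 0.16. Dpysl4 carried much of this range, from 5.67 in mad559 through a median of 7.18 to 9.22 in mad563, while Crmp1 ran from 12.62 to 13.28.

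In tumor mad554 the representing probe sets of Mapt and Gap43 were highest, by small margins, and those of Stmn2 and Dcx lowest. Th (14.33), the enzyme that starts catecholamine synthesis, was also highest in mad554. So were Eno2 (7.64), neuron-specific enolase, and Chga (13.51), a granin of secretory vesicles. The medians of Th, Eno2 and Chga over the 17 tumors were 13.14, 6.67 and 12.50. Dbh, which makes noradrenaline, was 10.21 in mad554 and highest in mad563 (10.56), and Sox11, a transcription factor of neuroblasts, was 12.09 in mad554, with a median of 12.37 and a lowest value of 12.06 in mad565. These 5 genes were chosen after their values were seen, and 14.7% of all genes were highest in mad554. The neuron and synapse mean was 10.18 in mad554 and highest in mad563 (10.53). The noradrenergic identity mean was 11.48 in mad554 and highest in mad560 (11.49). The mean of the hypoxia list was highest in mad554, at 9.48 against a median of 8.66.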
